A study of Mus musculus with 9 samples.

Results

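The 10 genes described here encode heat shock chaperones of the cytosol and the mitochondrial matrix: Hspa1a, Hspa1b, Hspa8, Hsp90aa1, Hsp90ab1, Hsph1, Dnaja1, Dnajb1, Hspd1 and Hspe1. They were taken by symbol from the authors' expression tables, where they are 10 of 24318 listed genes, and all 10 were found. Expression was measured by polyA-selected RNA-seq in 9 libraries of 1 cultured mouse cell line, 3 in each of 3 groups. SE-BDEV cells received brain-derived extracellular vesicles labelled for status epilepticus (library names "EV Pilo"), CON-BDEV cells received vesicles labelled as control (library names "EV Saline"), and Vehicle cells were labelled as vehicle-treated. Status epilepticus is a state of prolonged seizures, and extracellular vesicles are membrane-bound particles shed by cells. Dose, exposure time, passage and the animals behind the vesicles are not given in the labels, and nothing says whether replicates were separate cultures, so p-values measure the spread between libraries, which may be technical. The series design text calls the cells BV2, an immortalized mouse microglial line, whereas the source and cell line labels call them N2a, a mouse neuroblastoma line. Of 15 microglia and macrophage markers 13 reached a mean of 1 FPKM (sequenced fragments per kilobase of a gene's transcript, corrected for library size), among them Cd68 at 740 and Csf1r at 82.6 FPKM. The homeostatic microglial genes P2ry12 and Cx3cr1 stayed at 0.0142 and 0.122 FPKM. Of 15 neuronal and neuroblastoma markers only Elavl4 reached 1 FPKM (3.92), and Th, Dbh, Mycn and Stmn2 were listed at 0 in all 9 libraries. Astrocyte markers reached 1 FPKM in 0 of 6 cases and oligodendrocyte markers in 1 of 6 (Mbp, 1.41). Summed microglia and macrophage markers were 2399 to 2557 FPKM in SE-BDEV, 2361 to 2469 in CON-BDEV and 2363 to 2463 in Vehicle. Summed neuronal markers were 4.57 to 4.99 FPKM in SE-BDEV, 4.19 to 5.59 in CON-BDEV and 3.72 to 4.36 in Vehicle. Summed astrocyte markers were 0.530 to 0.724 FPKM in SE-BDEV, 0.527 to 0.676 in CON-BDEV and 0.743 to 0.843 in Vehicle, with Aqp4, Slc1a3 and Gja1 at 0 in all libraries. The part of these low levels in the results was not tested.

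Chaperones bind unfolded or partly folded proteins and help them fold, keep them soluble or hand them on to degradation, and many but not all use ATP. HSP70 proteins work in cycles: a J-domain protein such as DNAJA1 or DNAJB1 delivers a client and triggers ATP hydrolysis, and a nucleotide exchange factor such as HSPH1 releases the client again. HSP90 proteins take over late folding of kinases and receptors. In mitochondria the HSPD1 barrel closed by its lid HSPE1 folds imported proteins. Heat shock factor 1 (HSF1) drives many of these genes when unfolded protein builds up, through promoter elements made of alternating GAA and TTC units. Hspa1a and Hspa1b are the classic strongly inducible members and are often used as a readout of that response, while Hspa8 and Hsp90ab1 are the constitutive counterparts.

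Promoter sequence is shown for 3 members as a description. Most of each window lies before the transcript start, so it does not show how reads were assigned. Hspa1a and Hspa1b are near-copies, whose transcripts are compared further below, and Hspe1 shares a head-to-head promoter with Hspd1. Windows run from 250 bases before to 50 bases after the annotated start and are credited to RefSeq on GRCm38.p6, with 7 of the 10 members matched. The Hspa1a window is chr17:34972107-34972406, the Hspa1b window is chr17:34959189-34959488, both on the minus strand, and the Hspe1 window is chr1:55087898-55088197 on the plus strand. Capitals mark GAANNTTC or TTCNNGAA, both orders of a GAA and a TTC unit with 2 bases between them, searched on both strands with overlaps allowed.
Hspa1a: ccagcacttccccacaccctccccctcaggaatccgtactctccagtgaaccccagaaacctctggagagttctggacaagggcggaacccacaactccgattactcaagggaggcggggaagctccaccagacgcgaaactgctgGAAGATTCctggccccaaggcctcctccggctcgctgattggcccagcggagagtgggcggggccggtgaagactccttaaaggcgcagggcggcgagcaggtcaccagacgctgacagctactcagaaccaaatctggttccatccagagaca
Hspa1b: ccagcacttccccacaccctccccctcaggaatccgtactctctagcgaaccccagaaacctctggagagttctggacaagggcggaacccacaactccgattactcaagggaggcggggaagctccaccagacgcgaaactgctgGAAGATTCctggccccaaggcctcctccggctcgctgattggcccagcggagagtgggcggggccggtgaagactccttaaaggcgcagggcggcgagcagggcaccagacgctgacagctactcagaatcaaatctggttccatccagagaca
Hspe1: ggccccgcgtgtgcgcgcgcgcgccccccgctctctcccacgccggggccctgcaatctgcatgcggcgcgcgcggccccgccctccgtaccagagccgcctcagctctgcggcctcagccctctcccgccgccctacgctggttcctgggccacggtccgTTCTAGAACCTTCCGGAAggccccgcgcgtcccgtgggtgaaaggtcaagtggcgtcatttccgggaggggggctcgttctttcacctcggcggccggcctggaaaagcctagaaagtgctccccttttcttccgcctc
The Hspa1a and Hspa1b windows were identical at 296 of 300 bases and differed by C44T, T47C, T249G and C276T (Hspa1a base first, positions counted from the first base of the window). The Hspe1 window shares 285 bases with an Hspd1 window on the other strand, and the capitals lie before the Hspe1 start and before that Hspd1 start. The other of the 2 Hspd1 windows in the table, at chr1:55088194-55088493, holds no match. GAANNTTC was present in at least 1 window of 6 of the 7 members with a window (Dnaja1, Hspa1a, Hspa1b, Hspd1, Hspe1 and Hsph1, not Dnajb1), against 9.04% of 27025 genes with a window of the same length. TTCNNGAA was present in Hspd1, Hspe1 and Hsph1, against 9.60% of genes. A run of 3 units (GAA, TTC and GAA with 2 bases between neighbours, or its reverse complement), which contains both shorter motifs, was present in the same 3 members, against 0.662% of genes. In both Hsph1 windows this run lies after the annotated start, unlike in Hspd1 and Hspe1. The matches of Hspa1a and Hspa1b lie in near-identical windows, and those of Hspd1 and Hspe1 in the bases they share. The member counts are therefore not counts of independent sequences. These matches describe letters in a window and show nothing about binding.

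The members spanned a range of levels from under 1 FPKM to 2252 FPKM, and their order was the same in all 9 libraries. Hsp90ab1 was highest with a mean of 2252 FPKM over the 9 libraries and ranked 23 of 24318 genes. Hspa8 followed at 1758 FPKM (rank 49), Hsp90aa1 at 1340 (rank 69), Hspd1 at 1050 (rank 95) and Hspe1 at 485 (rank 182). Next came the cofactors, with Hsph1 at 114 FPKM, Dnaja1 at 57.4 and Dnajb1 at 13.7. The inducible pair came last, Hspa1a at 0.940 FPKM (rank 10593) and Hspa1b at 0.613 (rank 10896). Neighbours in this order did not overlap in range over the 9 libraries apart from Hspa8 with Hsp90aa1 and Hspa1a with Hspa1b. The lowest Hspa8 value, 1401 FPKM in CON-BDEV replicate 2, lay just under the highest Hsp90aa1 value, 1414 FPKM in CON-BDEV replicate 1. Hspa8, the constitutive HSP70, was 734 to 1770 times the sum of Hspa1a and Hspa1b in FPKM. Summed, the 10 genes held 1.15% ± 0.0261 of a library's FPKM in SE-BDEV, 1.17% ± 0.0683 in CON-BDEV and 1.15% ± 0.0325 in Vehicle (SD, n = 3 each). In bulk samples, fewer expressing cells and less RNA per cell cannot be told apart.

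**Figure D1:**
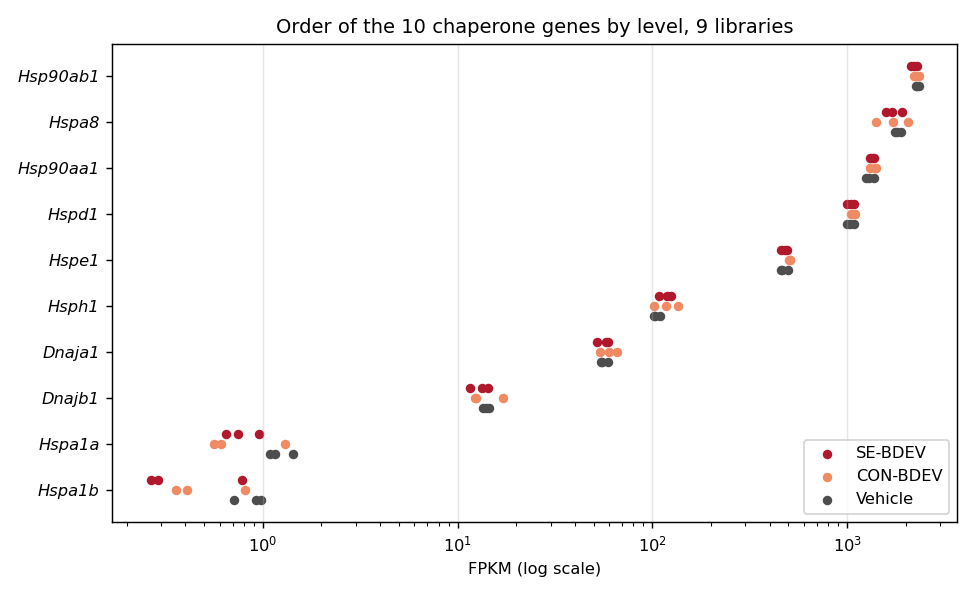
FPKM on a log axis for each of the 10 chaperone genes, ordered by mean, with 1 point per library and the groups SE-BDEV, CON-BDEV and Vehicle offset from top to bottom in each row. Hsp90ab1 sits highest and Hspa1a and Hspa1b lie near or under 1 FPKM in all 9 libraries.

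Estimated depth was 29034000 to 33578000 fragments per library, read from the steps between the lowest values of 17 long genes, since the files hold no counts. At that depth Hspa8 rests on about 128474 to 200663 fragments a library, and Dnajb1 on 1066 to 1593. Hspa1a rests on only 52 to 140 fragments and Hspa1b on 23 to 91. These fragment numbers take the longest annotated transcript as a gene's length. The authors may have used other lengths, so the numbers are approximate. Summed FPKM per library was 600196 to 625660. CON-BDEV replicate 2 had the lowest estimated depth and Vehicle replicate 2 the highest.

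The inducible pair was the only part of the set that the authors' own test called lower under vesicles. The test used here did not call Hspa1a, and Hspa1b was under its filter and not tested. Hspa1a had 0.644, 0.746 and 0.954 FPKM in SE-BDEV, 1.29, 0.607 and 0.561 FPKM in CON-BDEV and 1.43, 1.15 and 1.08 FPKM in Vehicle. Every SE-BDEV library was below every Vehicle library, while CON-BDEV replicate 1 lay within the Vehicle range and the other CON-BDEV libraries were below it. Mean Hspa1a was 0.781 ± 0.158 FPKM in SE-BDEV, 0.820 ± 0.410 in CON-BDEV and 1.22 ± 0.182 in Vehicle (SD, n = 3 each). Hspa1b had 0.266, 0.289 and 0.778 FPKM in SE-BDEV, 0.805, 0.360 and 0.410 FPKM in CON-BDEV and 0.980, 0.921 and 0.707 FPKM in Vehicle. SE-BDEV replicate 3 and CON-BDEV replicate 1 lay inside the Vehicle range, and the other 4 vesicle libraries were at or under 0.410 FPKM. The sum of both genes averaged 1.23 ± 0.443 FPKM in SE-BDEV, 1.34 ± 0.652 in CON-BDEV and 2.09 ± 0.308 in Vehicle (SD, n = 3 each).

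With limma on log2(FPKM + 1), each vesicle group was compared with Vehicle over all genes averaging 1 FPKM or more, and calls were made at a Benjamini-Hochberg adjusted p under 0.05. Hspa1a gave a log2 fold change of -0.32 in SE-BDEV against Vehicle (SE 0.101, 95% interval -0.55 to -0.09, limma adjusted p = 0.0754), lower in 3 of 3 libraries. In CON-BDEV against Vehicle it gave -0.31 (SE 0.149, interval -0.64 to 0.03, limma adjusted p = 0.254). The added 1 FPKM shrinks folds of genes this low: with 0.1 FPKM added Hspa1a came to -0.59 in SE-BDEV (limma adjusted p = 0.0760) and -0.60 in CON-BDEV (limma adjusted p = 0.239). Hspa1a entered these tests through its Vehicle level, with means of 1.0005 FPKM over SE-BDEV and Vehicle and 1.02 FPKM over CON-BDEV and Vehicle, and Hspa1b at 0.657 and 0.697 FPKM did not enter. Tested without the filter, Hspa1a gave -0.32 in SE-BDEV (limma adjusted p = 0.0930) and -0.31 in CON-BDEV (limma adjusted p = 0.364). In the same fits Hspa1b gave -0.39 in SE-BDEV (limma adjusted p = 0.182) and -0.30 in CON-BDEV (limma adjusted p = 0.251). Without SE-BDEV replicate 3, Hspa1a reached -0.39 with a limma adjusted p of 0.0497. With any 1 Vehicle library left out, Hspa1a fell under the filter in SE-BDEV against Vehicle and was not tested.

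In the authors' deposited table, Hspa1a had a log2 fold change of -0.64 (q = 0.0128) for SE-BDEV over Vehicle and -0.57 (q = 0.0383) for CON-BDEV over Vehicle. The authors' deposited table gave Hspa1b -0.97 (q = 0.00196) for SE-BDEV and -0.73 (q = 0.0251) for CON-BDEV. These are the only members under q = 0.05 in the authors' deposited table, 2 of 10 in each comparison. Over all genes the authors' deposited table had 5.36% under that q in SE-BDEV, with 2.01% lower, and 4.32% in CON-BDEV, with 1.56% lower. Both comparisons share the same 3 Vehicle libraries, so their like values are not independent. The pair cannot be treated as separate measurements either: of the 50-nt windows of the Hspa1a transcript, 58.8% occur unchanged in Hspa1b. At 100 nt the share was 47.1%, and no 50-nt window of Hspa1a occurs in Hspa8. Hspa1a read above Hspa1b in all 9 libraries, by 1.23 to 2.58 times, and how the authors' counting split shared reads is not stated. On mm9 Hspa1a lies at chr17:35106304-35109101 and Hspa1b at chr17:35093374-35096183.

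**Figure D2:**
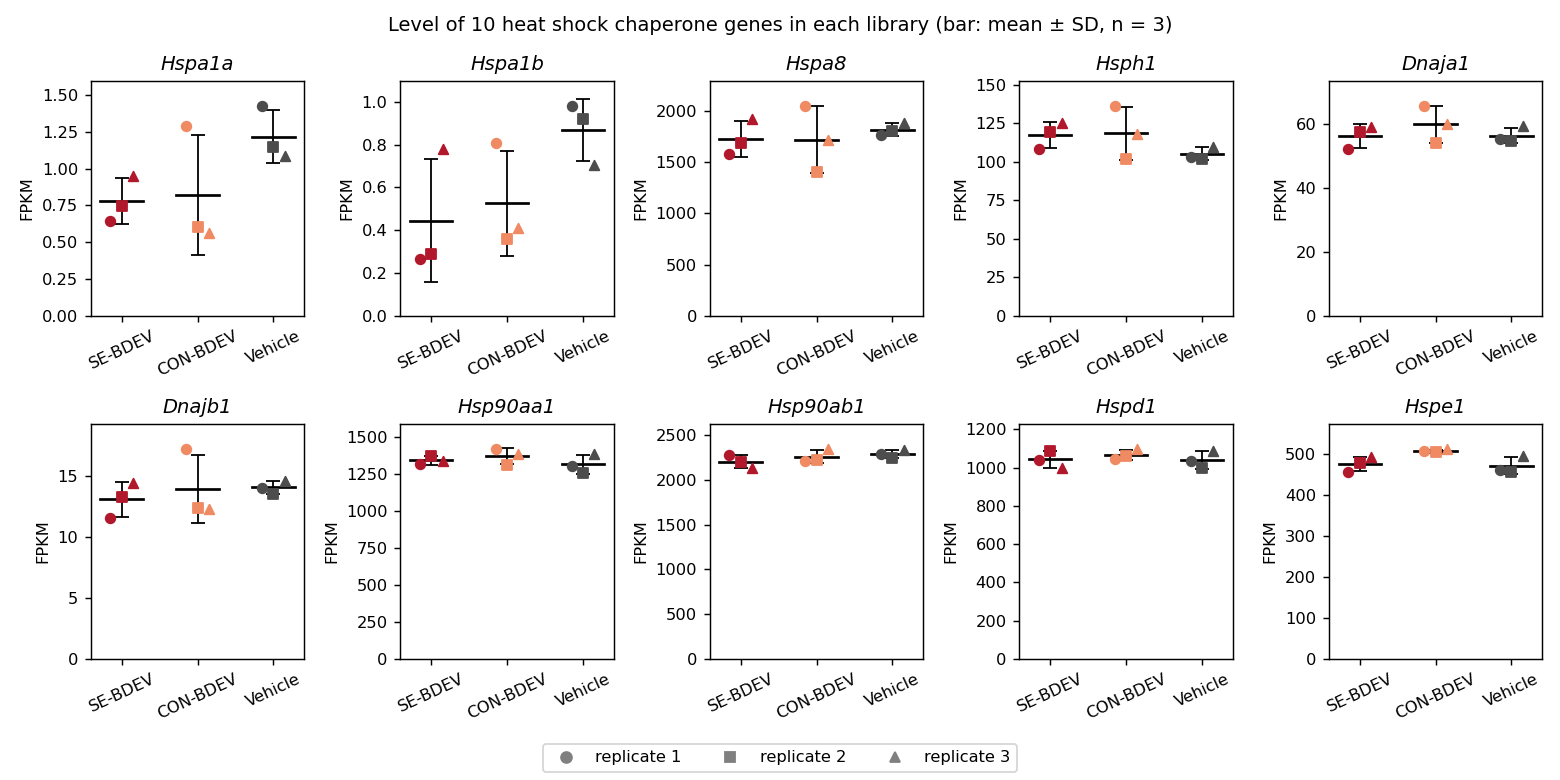
FPKM of each of the 10 chaperone genes in each library, 1 linear panel per gene starting at 0, with SE-BDEV, CON-BDEV and Vehicle from left to right, marker shapes for replicates, and bars for the mean and SD of 3 libraries. The Vehicle libraries of Hspa1a all lie above the SE-BDEV libraries, and the groups of Hspa8, Dnaja1 and Dnajb1 overlap.

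Among all members, limma called 0 of the 9 tested in SE-BDEV against Vehicle, against 11.9% of the 10535 genes tested. At an unadjusted p under 0.05 it called 2, Hspa1a and Hsph1 (27.4% of all genes), and 1 member, Hspa1a, did not overlap between groups (32.8% of all genes). In CON-BDEV against Vehicle limma also called 0 of 9, against 5.67% of 10535 genes. There 1 member, Hspe1, had an unadjusted p under 0.05 (23.5% of all genes), and the same gene was the 1 without overlap (29.3% of all genes). The median log2 fold change of the 9 tested members was -0.00 in SE-BDEV and 0.04 in CON-BDEV, beside -0.00 and 0.01 for all genes. These counts leave out Hspa1b, and include Hspa1a only through its Vehicle level.

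Hspa8, the constitutive HSP70 that folds new proteins and uncoats clathrin vesicles, had 1579, 1692 and 1921 FPKM in SE-BDEV, 2049, 1401 and 1719 FPKM in CON-BDEV and 1765, 1805 and 1889 FPKM in Vehicle. The vesicle libraries reached both above and below the Vehicle libraries, with the widest spread in CON-BDEV. Its log2 fold change was -0.08 in SE-BDEV (interval -0.22 to 0.07, limma adjusted p = 0.487) and -0.10 in CON-BDEV (interval -0.35 to 0.16, limma adjusted p = 0.648). Hsph1, an HSP110 that exchanges the nucleotide of HSP70, had 108, 119 and 125 FPKM in SE-BDEV, 136, 102 and 118 FPKM in CON-BDEV and 103, 102 and 110 FPKM in Vehicle. SE-BDEV replicate 1 fell inside the Vehicle range, SE-BDEV replicates 2 and 3 lay above it, and CON-BDEV spread on both sides. The fold change of Hsph1 was 0.16 in SE-BDEV (SE 0.0547, interval 0.04 to 0.28, limma adjusted p = 0.0925) and 0.16 in CON-BDEV (interval -0.04 to 0.37, limma adjusted p = 0.305). The value moved with single libraries: without SE-BDEV replicate 1 it reached 0.22 (limma adjusted p = 0.0247), and without CON-BDEV replicate 2 it reached 0.27 (limma adjusted p = 0.0441). Without SE-BDEV replicate 3 it was 0.11 (limma adjusted p = 0.191), and without CON-BDEV replicate 1 it was 0.06 (limma adjusted p = 0.581).

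The J-domain partners overlapped between groups. Dnaja1, a farnesylated partner of HSPA8, had 52.1, 57.5 and 59.0 FPKM in SE-BDEV, 65.5, 54.0 and 59.9 FPKM in CON-BDEV and 55.1, 54.7 and 59.2 FPKM in Vehicle. Its log2 fold changes were -0.00 in SE-BDEV (interval -0.12 to 0.12) and 0.08 in CON-BDEV (interval -0.07 to 0.24). The listed Dnaja1 locus, chr4:40667187-40704918 on mm9, overlaps Smu1, Gm6297 and Mir207, so its level is uncertain. Dnajb1, an HSF1 target that pairs with the inducible HSP70s, had 11.5, 13.3 and 14.4 FPKM in SE-BDEV, 17.1, 12.4 and 12.3 FPKM in CON-BDEV and 14.0, 13.5 and 14.6 FPKM in Vehicle. CON-BDEV replicate 1 was the highest of all 9 libraries and SE-BDEV replicate 1 the lowest. The fold changes of Dnajb1 were -0.10 in SE-BDEV (interval -0.26 to 0.06, limma adjusted p = 0.391) and -0.03 in CON-BDEV (interval -0.27 to 0.22, limma adjusted p = 0.915).

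The HSP90 genes, HSP90 alpha and beta, gave intervals close around 0 in both comparisons. Hsp90aa1, the stress-inducible form, had 1312, 1370 and 1338 FPKM in SE-BDEV, 1414, 1310 and 1383 FPKM in CON-BDEV and 1301, 1254 and 1381 FPKM in Vehicle. Hsp90ab1, the constitutive form, had 2282, 2201 and 2130 FPKM in SE-BDEV, 2216, 2219 and 2341 FPKM in CON-BDEV and 2293, 2245 and 2339 FPKM in Vehicle. Groups overlapped for both genes. Their 95% intervals against Vehicle ran from -0.07 to 0.13 for Hsp90aa1 and -0.14 to 0.03 for Hsp90ab1 in SE-BDEV. In CON-BDEV they ran from -0.05 to 0.17 for Hsp90aa1 and -0.11 to 0.07 for Hsp90ab1. The ratio of Hsp90ab1 to Hsp90aa1 in FPKM was 1.65 ± 0.0807 in SE-BDEV, 1.65 ± 0.0728 in CON-BDEV and 1.75 ± 0.0499 in Vehicle (SD, n = 3 each).

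The mitochondrial chaperonin genes lie 215 bases apart on mm9, Hspd1 at chr1:55134678-55144776 and Hspe1 at chr1:55144992-55148161, and share the promoter printed above. Hspd1 had 1042, 1089 and 1001 FPKM in SE-BDEV, 1047, 1059 and 1096 FPKM in CON-BDEV and 1033, 997 and 1088 FPKM in Vehicle, with overlapping groups. Hspe1 had 457, 478 and 492 FPKM in SE-BDEV, 507, 504 and 512 FPKM in CON-BDEV and 462, 458 and 496 FPKM in Vehicle. All 3 CON-BDEV libraries of Hspe1 lay above every other library. Its fold change was 0.11 in CON-BDEV (SE 0.0411, interval 0.01 to 0.20, limma adjusted p = 0.161) and 0.01 in SE-BDEV (interval -0.09 to 0.11, limma adjusted p = 0.883). Under quantile normalization the CON-BDEV value was 0.05 (limma adjusted p = 0.433). Hspd1 gave 0.01 in SE-BDEV (interval -0.10 to 0.11) and 0.04 in CON-BDEV (interval -0.06 to 0.14). The ratio of Hspd1 to Hspe1 in FPKM was 2.20 ± 0.143 in SE-BDEV, 2.10 ± 0.0377 in CON-BDEV and 2.20 ± 0.0305 in Vehicle (SD, n = 3 each).

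**Figure D3:**
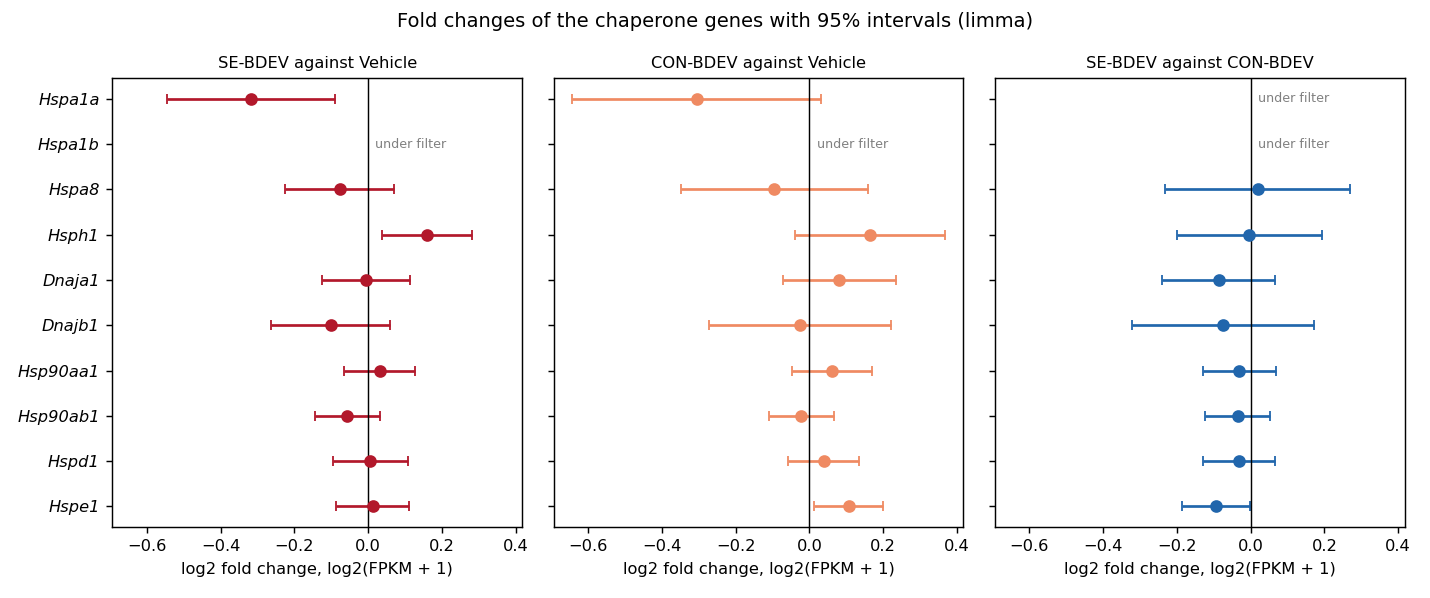
Log2 fold changes on the log2(FPKM + 1) scale with 95% intervals from limma, in panels for SE-BDEV against Vehicle, CON-BDEV against Vehicle and SE-BDEV against CON-BDEV. The Hspa1a point is at -0.32 and -0.31 in the Vehicle panels, the other tested points lie between -0.10 and 0.16 in all panels, and genes under the filter carry no point.

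SE-BDEV was compared with CON-BDEV directly in a fit of all 9 libraries, which asks whether the vesicles labelled for status epilepticus acted differently from control vesicles. No member was called among 8 tested, against 0% of 10532 genes, where limma had 0 genes past the threshold and 509 (4.83%) at an unadjusted p under 0.05. Only Hspe1 had an unadjusted p under 0.05 among the members and only Hspe1 did not overlap between the groups (7.94% of all genes), with a fold change of -0.09 (interval -0.19 to -0.00, limma adjusted p = 0.999) that was -0.02 under quantile normalization. Hspa8 gave 0.02 (interval -0.23 to 0.27), Hsph1 -0.00 (interval -0.20 to 0.19) and Dnajb1 -0.08 (interval -0.32 to 0.17). The Hsp90aa1 interval was -0.13 to 0.07 and the Hsp90ab1 interval -0.12 to 0.05. Differences inside these intervals could not be seen with 3 libraries a group. Hspa1a and Hspa1b were under the filter in this fit, and without the filter they gave -0.01 (interval -0.35 to 0.32) and -0.08 (interval -0.44 to 0.27).

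Within groups, members were often high or low in the same libraries. SE-BDEV replicate 1 was the lowest of its group for 8 of 10 members (32.2% of 10534 genes) and SE-BDEV replicate 3 the highest for 7 of 10 (33.9% of genes). CON-BDEV replicate 1 was the highest of its group for 7 of 10 members (34.5% of genes) and CON-BDEV replicate 2 the lowest for 6 of 10 (36.5% of genes). Vehicle replicate 3 was the highest of its group for 8 of 10 members (37.6% of genes) and the lowest for Hspa1a and Hspa1b, which were highest in Vehicle replicate 1. Library names open with a number whose meaning is not given. It is 1 for SE-BDEV replicate 1, CON-BDEV replicate 1, Vehicle replicate 1 and Vehicle replicate 2, and 2 for the others. SE-BDEV replicate 1, CON-BDEV replicate 1 and Vehicle replicate 3 are thus each alone in their group with their number. The number is not balanced between Vehicle and the vesicle groups, and its part in these orders was not tested. Against the Vehicle mean, CON-BDEV replicate 1 stood at log2 ratios of 0.37 for Hsph1, 0.29 for Dnajb1, 0.22 for Dnaja1, 0.17 for Hspa8 and 0.08 for Hspa1a. In that library Hsp90aa1 stood at 0.11, Hspe1 at 0.10, Hspd1 at 0.01, Hsp90ab1 at -0.05 and Hspa1b at -0.11. Hmox1, the heme oxygenase of the oxidative stress response, is set beside them and was chosen after its values were seen. It had 391, 417 and 681 FPKM in SE-BDEV, 578, 260 and 569 FPKM in CON-BDEV and 136, 141 and 143 FPKM in Vehicle. The highest SE-BDEV library and the lowest CON-BDEV library for Hmox1 are also the libraries in which most members were highest or lowest within that group, and the part of this variation in the results was not tested.

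**Figure D4:**
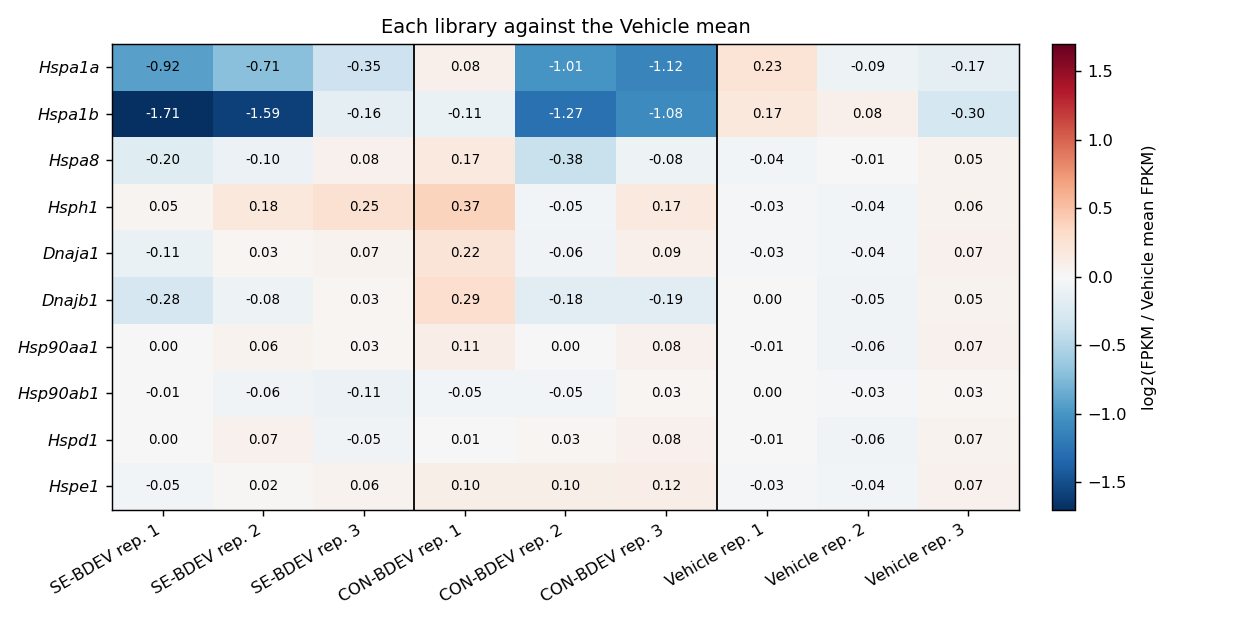
Log2 ratio of each library's FPKM to the mean FPKM of the 3 Vehicle libraries, for 10 chaperone genes in rows and 9 libraries in columns, with SE-BDEV on the left, CON-BDEV in the middle and Vehicle on the right, red above and blue below the Vehicle mean. Hspa1a and Hspa1b reach -1.12 and -1.71, and CON-BDEV replicate 1 is above the Vehicle mean for every gene except Hsp90ab1 and Hspa1b.

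The other genes of the chaperone system were read from 8 lists with 95 genes, of which 79 passed the filter. In SE-BDEV against Vehicle 3 rose and 3 fell, in CON-BDEV against Vehicle 1 rose and 1 fell, and 0 of 79 passed in SE-BDEV against CON-BDEV. Their median log2 fold changes were -0.01 in SE-BDEV, 0.04 in CON-BDEV and -0.04 in SE-BDEV against CON-BDEV. Over all genes 6.76% were called higher and 5.14% lower in SE-BDEV, and 3.81% higher and 1.86% lower in CON-BDEV.

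The genes that fell most were in the list of other HSP70 and HSP110 proteins, where 2 of 5 tested fell in SE-BDEV and 1 of 5 in CON-BDEV. Hspa1l, an HSP70 known mainly from testis, lies next to Hspa1a at chr17:35109648-35116173 on mm9. It had 5.82, 5.83 and 5.98 FPKM in SE-BDEV, 6.44, 6.77 and 5.62 FPKM in CON-BDEV and 8.14, 7.55 and 8.20 FPKM in Vehicle. Every vesicle library was below every Vehicle library. Over all genes 32.8% did not overlap with Vehicle in SE-BDEV and 29.3% in CON-BDEV. The fold change of Hspa1l was -0.38 in SE-BDEV (SE 0.0521, limma adjusted p = 0.00238) and -0.30 in CON-BDEV (SE 0.0716, limma adjusted p = 0.0447). The SE-BDEV call held without any 1 library (limma adjusted p at most 0.0165). The CON-BDEV call was lost without CON-BDEV replicate 3 (-0.24, limma adjusted p = 0.122) or without any 1 Vehicle library (-0.34 to -0.28, limma adjusted p = 0.109 to 0.165), and it held in 6 of 15 alternatives in all. Of the 50-nt windows of Hspa1a, 7.95% occur in Hspa1l, so some reads could belong to either. Hspa2, another testis HSP70, had 2.06, 2.02 and 2.61 FPKM in SE-BDEV, 3.04, 2.08 and 1.94 FPKM in CON-BDEV and 3.93, 3.20 and 3.39 FPKM in Vehicle, again with no overlap with Vehicle. Its fold change was -0.48 in SE-BDEV (SE 0.0925, limma adjusted p = 0.0116) and -0.44 in CON-BDEV (limma adjusted p = 0.0727), and the SE-BDEV call was lost without Vehicle replicate 1 (limma adjusted p = 0.0542). No 50-nt window of Hspa1a occurs in Hspa2.

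**Figure D5:**
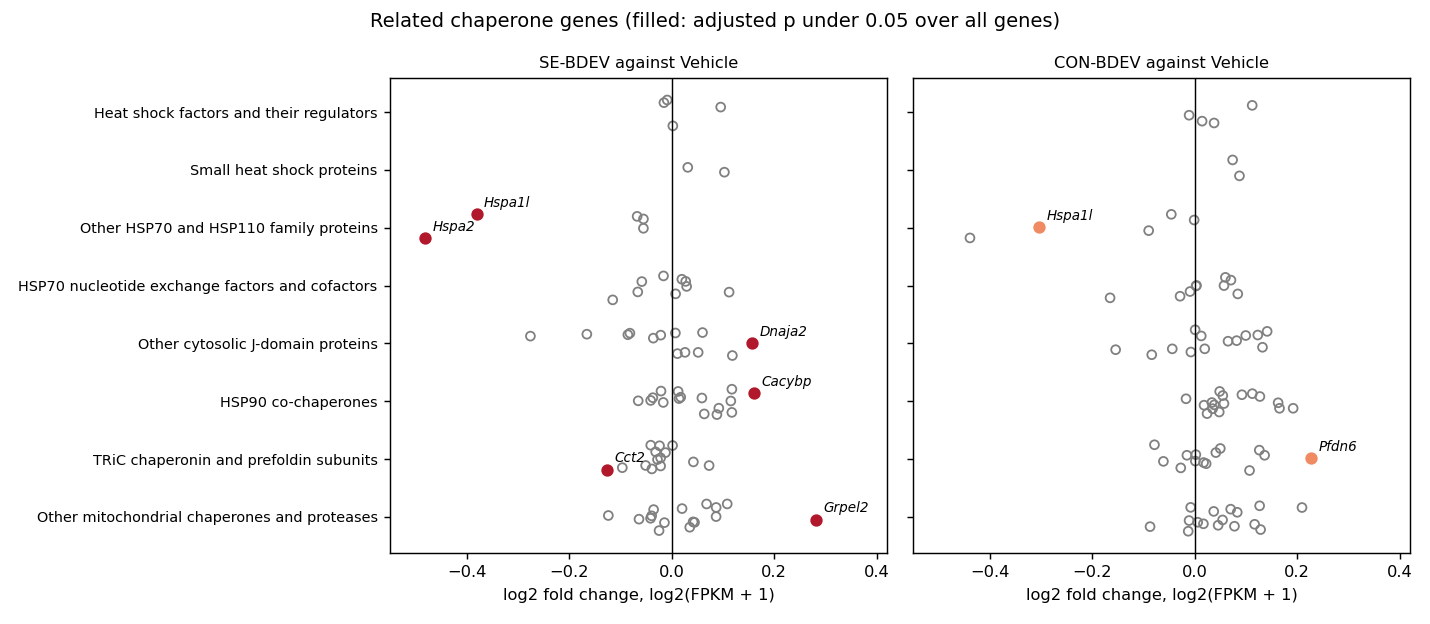
Log2 fold changes on the log2(FPKM + 1) scale for 79 tested genes of 8 chaperone lists, 1 list per row and 1 point per gene, for SE-BDEV against Vehicle on the left and CON-BDEV against Vehicle on the right, filled where the adjusted p over all genes was under 0.05. In SE-BDEV 6 points are filled and in CON-BDEV 2, with Hspa1l filled in both.

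The remaining calls were small and were lost when some single libraries were left out. Over the 6 fits that each left out a library, log2 fold changes were 0.22 to 0.32 for Grpel2, 0.14 to 0.18 for Dnaja2, 0.13 to 0.19 for Cacybp, -0.14 to -0.12 for Cct2 and 0.18 to 0.29 for Pfdn6. Grpel2, a mitochondrial nucleotide exchange factor of the HSP70 HSPA9, had 15.6, 13.6 and 13.7 FPKM in SE-BDEV, 12.7, 13.4 and 14.5 FPKM in CON-BDEV and 11.1, 11.5 and 12.1 FPKM in Vehicle. It rose by 0.28 in SE-BDEV (limma adjusted p = 0.0189) as the 1 call among 16 mitochondrial genes, and the call was lost without Vehicle replicate 1 or 2. Dnaja2, a J-domain partner of HSPA8, averaged 117 ± 2.72 FPKM in SE-BDEV, 115 ± 4.31 in CON-BDEV and 105 ± 3.26 in Vehicle (SD, n = 3 each). It rose by 0.16 in SE-BDEV (limma adjusted p = 0.0284) as the 1 call among 13 J-domain genes, and the call was lost without SE-BDEV replicate 2 or Vehicle replicate 1 or 2. Cacybp, which binds a ubiquitin ligase of the SIAH family, rose by 0.16 in SE-BDEV (limma adjusted p = 0.0358) as the 1 call among 16 HSP90 co-chaperones. That call was lost without SE-BDEV replicate 2 or 3 or Vehicle replicate 1 or 2. Cct2, a subunit of the cytosolic TRiC chaperonin, averaged 356 ± 4.13 FPKM in SE-BDEV, 373 ± 15.1 in CON-BDEV and 389 ± 3.34 in Vehicle (SD, n = 3 each). It was the 1 call among 14 TRiC and prefoldin genes in SE-BDEV, at -0.13 (limma adjusted p = 0.0315), and the call was lost without any 1 of the 6 libraries. In CON-BDEV the prefoldin subunit Pfdn6 rose by 0.23 (limma adjusted p = 0.0454), which held only without CON-BDEV replicate 1 among the 6 left-out libraries.

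The heat shock factors, small heat shock proteins and HSP70 cofactors gave no call in either comparison with Vehicle, with 4 of 7, 2 of 9 and 9 of 9 genes tested. Hsf1 had 31.2, 30.3 and 28.9 FPKM in SE-BDEV, 31.5, 29.99 and 29.94 FPKM in CON-BDEV and 27.0, 28.6 and 28.8 FPKM in Vehicle. Each vesicle library was above all Vehicle libraries, at the closest 28.89 FPKM in SE-BDEV replicate 3 against 28.82 in Vehicle replicate 3. Groups did not overlap for 32.8% of all genes in SE-BDEV against Vehicle and 29.3% in CON-BDEV against Vehicle. The log2 fold change of Hsf1 was 0.10 in SE-BDEV (limma adjusted p = 0.204) and 0.11 in CON-BDEV (limma adjusted p = 0.183). The small heat shock proteins Hspb1 and Cryab, both strongly heat-inducible in many cells, averaged 0.0529 and 0.0183 FPKM, and Hspb8, Hspb2, Hspb3 and Cryaa were listed at 0 in all 9 libraries. Bag3, an HSF1 target that couples HSP70 to autophagy, was chosen after its values were seen. It had 15.6, 14.7 and 16.5 FPKM in SE-BDEV, 18.6, 12.3 and 14.8 FPKM in CON-BDEV and 17.0, 17.1 and 16.8 FPKM in Vehicle. Its fold changes were -0.12 in SE-BDEV (limma adjusted p = 0.166) and -0.17 in CON-BDEV (limma adjusted p = 0.424). Hspb1, Cryab, Hspb8, Hspb2, Hspb3 and Cryaa lay under the filter, as did Hspb9 at 0.342 FPKM, and were named outside the rule for related genes. The remaining genes named here were taken for their mean level within a list, not for their change. Over all 79 tested genes log2 fold changes ranged from -0.48 to 0.28 in SE-BDEV and from -0.44 to 0.23 in CON-BDEV. In SE-BDEV against CON-BDEV they ranged from -0.19 to 0.08. Hspa9, the mitochondrial HSP70, gave -0.02 in SE-BDEV and -0.01 in CON-BDEV, and the HSF1-binding Hsbp1 gave 0.00 in SE-BDEV and 0.04 in CON-BDEV. The small heat shock proteins Hspb6 and Hspb7 gave 0.10 and 0.03 in SE-BDEV and 0.09 and 0.07 in CON-BDEV, none past the threshold. The HSP70 cofactors St13 and Bag1 gave 0.01 and 0.03 in SE-BDEV and 0.06 and 0.07 in CON-BDEV. In CON-BDEV the HSP90 co-chaperones Nudc and Fkbp4 gave 0.13 and 0.04, the J-domain genes Dnaja2 and Dnajc8 0.13 and 0.08, and the mitochondrial protease Lonp1 0.04, with no call. In SE-BDEV against CON-BDEV, the most abundant genes of the lists gave -0.01 for Hspa4, -0.05 for Hspa14, -0.06 for Cct3, -0.04 for Cct5, -0.08 for Fkbp4, -0.06 for Nudc, -0.05 for St13, -0.04 for Bag1, -0.08 for Lonp1 and -0.07 for Dnajc8, all without a call. The same fit gave -0.04 for Hsbp1, -0.02 for Hsf1, 0.02 for Hspb6, -0.04 for Hspb7, 0.02 for Dnaja2 and -0.01 for Hspa9.

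Across the 9 libraries, the genes whose log2(FPKM + 1) most resembled the mean standardized profile of the 8 members above the filter were Eif2b1 (Pearson r = 0.916), Vcp (0.913), Gpn1 (0.892), Parg (0.889) and Tnfsf13b (0.889). The libraries share their groups and processing, so these are descriptions only. Vcp, the AAA ATPase that extracts ubiquitylated proteins, had 217, 234 and 230 FPKM in SE-BDEV, 246, 220 and 237 FPKM in CON-BDEV and 220, 216 and 227 FPKM in Vehicle. Its highest library was CON-BDEV replicate 1.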

How the data were processed

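The 10 members and the lists of related genes were chosen with earlier results of these data known. Per the labels' protocols, libraries were polyA-selected and directional; whether counting used strand is not given in the sources used here. Per the submitters' processing notes, reads were handled with TopHat2 and Cuffdiff on mm9; versions and annotation are not given in the sources used here. The deposited tables give FPKM per gene and library, made by the authors, in 1 table of SE-BDEV with Vehicle and 1 of CON-BDEV with Vehicle. The authors' deposited Cuffdiff tables give a log2 fold change, a test score, a p-value and a q-value per gene, per the file headers. The Vehicle libraries in the tables differ by factors of 1.0001 to 1.0008, so levels are joined after dividing SE-BDEV by 1.0004. No sample column was left unused.

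Values were analysed as log2(FPKM + 1) with limma 3.58.1 (R 4.3.3; lmFit, eBayes with trend, 2-sided) for genes averaging 1 FPKM or more, without genes marked as having too many fragments (1 in the SE-BDEV table, 2 in the CON-BDEV table). Vesicle groups were compared with Vehicle within a table and with each other in 1 fit of 9 libraries, without a replicate block. An exact permutation test of 3 against 3 cannot go below p = 0.1. Depth was estimated, and more fragments give less counting error. Alternatives were another pseudocount, other filters, quantile normalization, blocks, other sets of libraries, averaging Hspa1a with Hspa1b, and leaving out each library. The related genes named are, per list, the 4 largest changes that passed the threshold or, with none, the 2 of highest mean. Bag3 and the small heat shock proteins under the filter were named outside this rule. Predicted genes and genes named for clones were skipped.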

Additional observations from a re-analysis of the deposited data

How the results depend on the processing

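Of 400 alternative values for tested members, 371 kept their direction and their side of the threshold, 3 passed it and 26 changed sign, all 26 without a call. The other filters, the block on replicate number and the averaging of Hspa1a with Hspa1b leave these fold changes unchanged. Direction could therefore not change under them, and the count of 371 does not measure stability. The 3 that passed were Hspa1a without SE-BDEV replicate 3 (-0.39) and Hsph1 without SE-BDEV replicate 1 (0.22) or without CON-BDEV replicate 2 (0.27), so members called ranged from 0 to 1 against Vehicle in both comparisons when a library was left out. Hspa1a entered that fit through its Vehicle level, and fits in which it fell under the filter are not among the 400 values. Counts of all genes called depended on the processing. For SE-BDEV against Vehicle the count was 1253, with 726 without the filter on low values (726 also with Hspa1a and Hspa1b averaged, an alternative added after seeing the data), 830 with all 9 libraries in the fit and 501 to 1311 with a library left out. For CON-BDEV against Vehicle it was 597, with 112 without the filter (112 also with the pair averaged), 364 with the replicate number as a block, 275 blocked on the number that opens each library name and 84 to 1067 with a library left out. For SE-BDEV against CON-BDEV it was 0, and 0 to 1 with a library left out. The cause of these changes was not tested.

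Sign changes in SE-BDEV against Vehicle were Hsp90ab1 at 0.011 under quantile normalization, and Hspd1 at -0.011 and Hspe1 at -0.020 with the library-name block. With a library left out, Hsp90aa1 ran from -0.0010 to 0.069, Dnaja1 from -0.040 to 0.047, Hspd1 from -0.025 to 0.040 and Hspe1 from -0.013 to 0.049. In CON-BDEV against Vehicle Dnajb1 changed sign to 0.036 with the library-name block and ran from -0.17 to 0.052 with a library left out, and Hspa8 ran from -0.23 to 0.045. In SE-BDEV against CON-BDEV the changes under quantile normalization were Hsp90aa1 at 0.029, Hsp90ab1 at 0.061, Hsph1 at 0.021 and Hspd1 at 0.015. With a library left out, Hspa8 ran from -0.12 to 0.15, Hsph1 from -0.11 to 0.10 and Dnajb1 from -0.15 to 0.072. The adjusted p of Hspa1a ranged over its alternatives from 0.0497 to 0.188 in SE-BDEV and from 0.166 to 0.538 in CON-BDEV. These ranges leave out fits in which Hspa1a fell under the filter. In SE-BDEV against Vehicle these included every fit that left out a Vehicle library. In CON-BDEV against Vehicle they included the fits without CON-BDEV replicate 1, Vehicle replicate 1 or Vehicle replicate 2. Averaged with Hspa1b without the filter, the pair gave -0.35 (limma adjusted p = 0.125) and -0.30 (limma adjusted p = 0.310); with the filter it fell below 1 FPKM and gave no value. Among related genes, the SE-BDEV call held in 15 of 15 alternatives for Hspa1l, 13 of 14 for Hspa2, 12 of 15 for Dnaja2, 11 of 15 for Grpel2 and 7 of 15 for Cacybp and for Cct2. The CON-BDEV call held in 6 of 15 for Hspa1l and 6 of 15 for Pfdn6, and was lost for Hspa1l with the replicate block (limma adjusted p = 0.0900) and without the filter (limma adjusted p = 0.116). Replicate numbers did not pair libraries: same-number correlations of deviations were -0.26 to 0.19, and 3 of 9 libraries were closest to their own number. Levels with the SE-BDEV libraries as deposited moved by at most 2.04% of an SD. Depth limits the inducible pair most, as by estimate at most about 140 fragments a library stand behind Hspa1a and 91 behind Hspa1b.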
